A study of Mus musculus with 6 samples.

Results

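Chemokines and chemokine receptors were read out by bulk RNA-seq in damaged hepatocytes (dHeps) after 16 days of culture with solvent or with compound cocktails. The family was taken from the gene symbols alone, as the Ccl, Cxcl, Ccr and Cxcr genes with Cx3cl1, Cx3cr1, Xcl1, Xcr1, Ccrl2 and Ackr1 to Ackr4. This gave 62 of the 52323 genes in the deposited count table, of which 39 were ligands, 18 were signalling receptors and 5 were atypical receptors. The rule itself used no measured value.

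All dHeps came from livers of mice injured with carbon tetrachloride (CCl4), a hepatotoxin, with the genotype AAV-TBG-Cre:Rosa-LSL-tdTomato. There a viral Cre under the hepatocyte promoter TBG switches on the red tracer tdTomato. All were kept in the same serum-free Hepatocyte Maintenance Medium for 16 days. The control group received DMSO, the solvent. The 3C group received CID755673 at 50 µM, a protein kinase D inhibitor, with GSK429286A at 2 µM, a ROCK inhibitor, and ETC-1002 at 5 µM, which the study used as an AMPK activator. The 5C group received the same 3 compounds with salidroside at 5 µM, a plant glycoside, and forskolin at 2 µM, which activates adenylate cyclase. The study's methods give collagenase perfusion of livers of adult mice as the isolation for this culture, and describe no sorting step in it. Each group had 2 libraries. The methods call replicates biological in general, but neither they nor the labels say whether the libraries of a group were separate animals or cultures. The p-values measure the spread between these libraries, which may be technical.

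Chemokines are small secreted proteins that guide leukocytes along gradients through G protein-coupled receptors. CC ligands act mainly on monocytes, macrophages and lymphocytes. CXC ligands that carry the ELR motif attract neutrophils through Cxcr2, while those induced by interferon attract T cells through Cxcr3. Atypical receptors bind chemokines without G protein signalling and take them up or hold them. In injured liver, chemokines are made by Kupffer cells, which are the resident macrophages, and by hepatocytes, stellate cells, cholangiocytes and endothelium.

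Libraries held 65916573 to 69245895 estimated counts, and levels are given below as CPM, the estimated count scaled to the library total, or, between genes, as length-scaled FPKM. A count of 12, assumed to stand for 3 fragments, was taken as the floor and corresponded to 0.173 to 0.182 CPM. The floor covers counting error only, while SEs and intervals come from the spread between libraries in the fit. A gene was called when the edgeR quasi-likelihood test gave a Benjamini-Hochberg adjusted p under 0.05 over all 19135 genes tested and the absolute log2 fold change was above 1. Adjusted p-values below come from that test unless another is named.

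The labelled cell type was checked against its markers. All 12 hepatocyte markers were detected, at a summed 4377 and 3983 CPM in DMSO, 16300 and 17162 CPM in 3C, and 17006 and 22972 CPM in 5C. Alb stood at 1357 and 1182 CPM in DMSO, 7402 and 7769 CPM in 3C, and 6766 and 10400 CPM in 5C. Macrophage markers were detected in the same libraries at a summed 13974 and 15084 CPM in DMSO, 4910 and 4930 CPM in 3C, and 3368 and 3321 CPM in 5C. In DMSO the macrophage sum lay above the hepatocyte sum, and in the cocktails it lay below. The sums are not scaled for gene length and cover 17 and 12 genes, so they do not compare amounts of the cell types. The presence of macrophage RNA in every library goes against reading the label of dHeps as hepatocytes alone. The paper describes the isolation as enriching tdTomato-positive, hepatocyte-derived cells, and does not state that only these remained. Of 17 macrophage markers, 15 were called lower in 3C and 15 in 5C, all but Cd14 and Clec4f, and none was at or under the floor throughout. Hepatocyte markers were called higher for 11 of 12 genes in 3C and 10 of 12 in 5C. In bulk RNA, fewer cells of a type and less RNA per cell cannot be told apart. The part of these marker shifts in the chemokine results was not tested.

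Several family members are classical targets of NF-kappaB and of interferon signalling, so the promoter sequence was taken from RefSeq (GRCm38.p6), which held an entry for 47 of the 62 members. The 250 bases before the start site are printed for 4 ligands whose levels differ in direction below. Capitals mark matches to the NF-kappaB consensus, and in Cxcl10 also the match nearest the 5′ end, to the interferon-stimulated element, which is TTTC and TTTC parted by 2 bases, read there from the opposite strand. Cxcl1 (chr5:90890995-90891244, plus strand) and Ccl20 (chr1:83116516-83116765, plus strand) were higher in 3C, Cxcl2 (chr5:90903649-90903898, plus strand) was lower in 5C than in 3C, and Cxcl10 (chr5:92348890-92349139, minus strand) was lower in both cocktails than in DMSO.
Cxcl1: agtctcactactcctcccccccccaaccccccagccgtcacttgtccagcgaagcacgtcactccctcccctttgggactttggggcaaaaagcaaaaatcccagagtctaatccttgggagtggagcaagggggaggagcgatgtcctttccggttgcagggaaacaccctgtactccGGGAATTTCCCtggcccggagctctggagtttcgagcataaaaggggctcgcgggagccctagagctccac
Cxcl2: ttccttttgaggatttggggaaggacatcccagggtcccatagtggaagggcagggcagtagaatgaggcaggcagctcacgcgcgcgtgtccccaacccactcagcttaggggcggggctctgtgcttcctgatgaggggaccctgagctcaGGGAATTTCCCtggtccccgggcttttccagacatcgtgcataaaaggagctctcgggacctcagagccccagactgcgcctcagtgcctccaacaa
Ccl20: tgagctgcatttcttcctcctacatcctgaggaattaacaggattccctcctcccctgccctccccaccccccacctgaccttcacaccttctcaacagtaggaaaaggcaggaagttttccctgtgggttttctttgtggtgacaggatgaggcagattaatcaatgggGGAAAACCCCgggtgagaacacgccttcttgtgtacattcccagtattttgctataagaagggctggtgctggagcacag
Cxcl10: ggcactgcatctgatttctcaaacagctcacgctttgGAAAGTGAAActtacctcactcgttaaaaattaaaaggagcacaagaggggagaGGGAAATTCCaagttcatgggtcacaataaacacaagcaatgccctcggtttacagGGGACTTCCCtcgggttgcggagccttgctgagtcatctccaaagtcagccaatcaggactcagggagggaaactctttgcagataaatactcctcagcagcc

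Counted back from the start site, the NF-kappaB match lay at -71 to -61 in Cxcl1, where overlapping matches on both strands form a palindrome. The same palindrome lay at -97 to -87 in Cxcl2. Ccl20 held 1 match at -80 to -71. Cxcl10 held NF-kappaB matches at -159 to -150 and -103 to -94, with the interferon-stimulated element at -213 to -204. Thus ligands that rose and a ligand that fell carried the same element.

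Across the family, the 47 matched members had 56 windows, since some have several start sites. The NF-kappaB consensus was found on either strand in 10 of the 56, each of another member (Ackr2, Ccl20, Ccl9, Ccr3, Ccr6, Ccrl2, Cxcl1, Cxcl10, Cxcl2 and Cxcl3), and in 3.90% of all 32851 windows. Of matched members called higher against DMSO, 2 of 5 held it, and of those called lower, 2 of 9. Ccl2, Cxcl5 and Ccr10, called higher, and Ccl4 and Ccl24, called lower, had no promoter entry and were not searched. The interferon-stimulated element was found in 3 of the 56 (Ccl19, Cxcl10 and Cxcl14) and in 2.98% of all windows. The cyclic AMP response element TGACGTCA was found in 0 of the 56 and in 1.55% of all windows. The STAT elements, TTC and GAA parted by 3 or by 4 bases, were found in 3 and 1 of the 56, and in 7.02% and 5.85% of all windows. The AP-1 element TGANTCA was found in 6 of the 56 and in 6.75% of all windows. A match describes the letters of the window and not a bound site.

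Of the 62 members, 7 had a count of 0 in every library (Ccl1, Ccl11, Ccl22, Ccl26, Ccr6, Ccr8 and Xcl1), and 41 exceeded the floor in at least 1 library. The low-count filter left 41 members for testing. The other 21 had at most 12 counts in any library. Of the 41 tested members, 29 reached the filter in all 3 groups. The others included Cx3cr1 and Ccr10, which reached it only in the cocktails and so were present in the test because of the groups in which they were high.

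In 5C against DMSO, 6 members were called higher and 10 lower, beside 7.3% and 4.42% of all tested genes. The rises were those of Ccl2, Cxcl5, Cxcl12, Cx3cl1, Cx3cr1 and Ccr10. The falls were those of Ccl3, Ccl4, Ccl6, Ccl8, Ccl9, Ccl12, Ccl24, Cxcl10, Cxcl13 and Ccr1. In 3C against DMSO, 7 members were called higher and 7 lower, beside 5.83% and 3.62% of all tested genes. The rises were those of Ccl2, Ccl20, Cxcl1, Cxcl5, Cx3cl1, Cx3cr1 and Ccr10, and the falls those of Ccl6, Ccl8, Ccl9, Ccl24, Cxcl10, Ccr1 and Cxcr4. Both comparisons used the same DMSO libraries. Between the cocktails, Ackr3 was called higher in 5C, beside 2.16% of all tested genes, and Ccl20, Cxcl2 and Cxcl5 were called lower, beside 0.852%. Without the fold limit, 5C had 8 members higher than DMSO and 12 lower, beside 15.6% and 13.1% of all genes, while 3C had 9 and 11, beside 12.7% and 11.8%. Between the cocktails those counts were 3 and 9, beside 7.33% and 5.33%. Over the 41 tested members the median log2 fold change was 0.19 for 5C and 0.10 for 3C against DMSO, and -0.24 for 5C against 3C. Over all genes it was 0.00 for 5C and 0.01 for 3C against DMSO, and -0.01 for 5C against 3C.

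**Figure D1:**
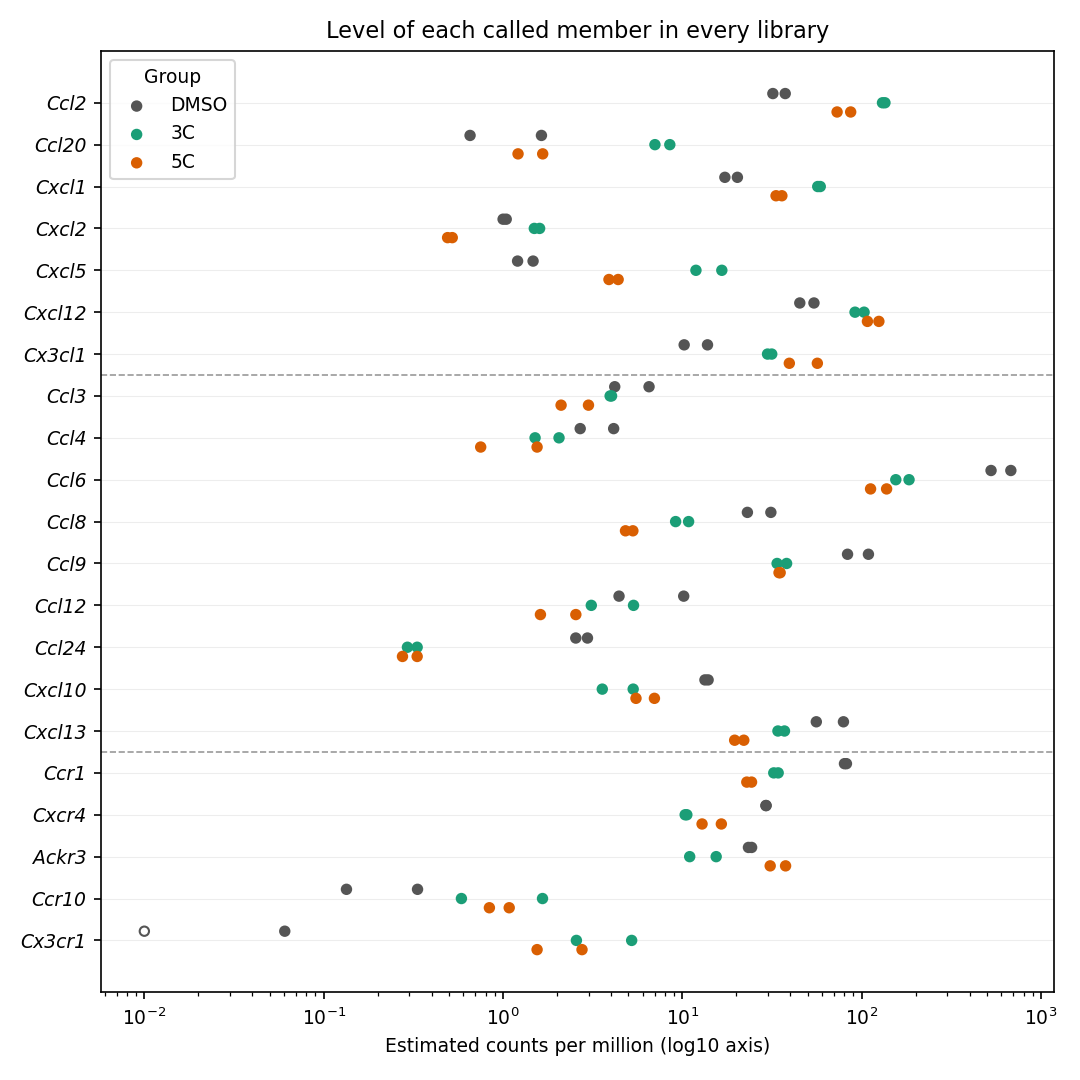
Level in CPM (log10 axis) of the 21 members called in any comparison, with 1 point for each of the 2 libraries of DMSO (grey), 3C (green) and 5C (orange). Dashed lines part ligands called higher against DMSO, or differing only between the cocktails, from ligands called lower and from receptors, and the open circle at the left edge is a Cx3cr1 count of 0. The grey points of Ccl6, the most abundant ligand in DMSO, lie right of all its green and orange points, while those of Ccl2 lie left of them.

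The sum of ligand FPKM was lower with the cocktails, and its make-up differed. The 39 ligands summed to 644 and 741 FPKM in DMSO, 531 and 511 FPKM in 3C, and 402 and 362 FPKM in 5C, with no overlap between groups. Ccl6 gave 53.2% and 56.7% of that sum in DMSO, 21.4% and 19.1% in 3C, and 21.9% and 19.3% in 5C. Ccl2 gave 5.39% and 5.41% in DMSO, 26.8% and 27.5% in 3C, and 23.6% and 21.4% in 5C. Per length, Ccl6 was thus the leading ligand in DMSO, whereas Ccl2 led in 3C and in 5C, narrowly ahead of Ccl6 in the 5C libraries. The 23 receptors summed to 54.1 and 52.4 FPKM in DMSO, 23.8 and 24.2 FPKM in 3C, and 30.8 and 29.7 FPKM in 5C.

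**Figure D2:**
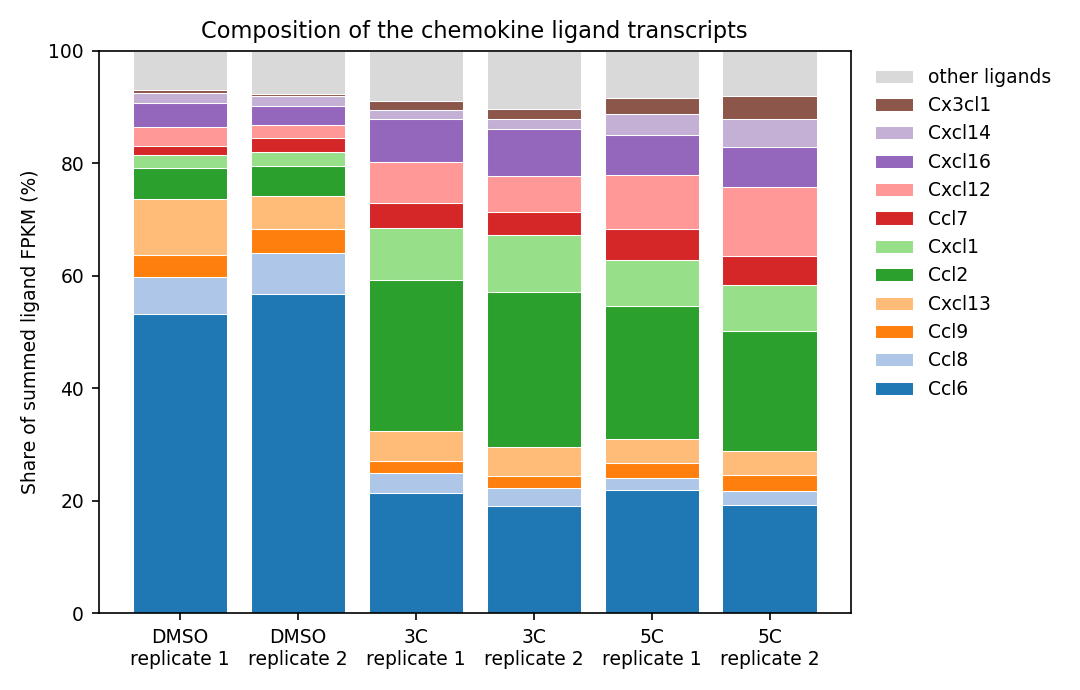
Share of the summed ligand FPKM (%, stacked to 100) taken by each of 11 ligands and by all other ligands, with 1 bar for each library. The Ccl6 segment at the base falls from 53.2% and 56.7% in the DMSO bars to between 19.1% and 21.9% in the 3C and 5C bars, and the Ccl2 segment grows from 5.39% and 5.41% to between 21.4% and 27.5%.

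Among ligands of monocytes and macrophages, more were called lower than higher. All 9 such CC ligands were tested. In 5C, 1 was called higher and 6 lower (median log2 fold change -1.45), beside 7.3% and 4.42% of all tested genes. In 3C, 1 was called higher and 3 lower (median -0.97), beside 5.83% and 3.62%. Ccl6, a ligand of Ccr1 made by myeloid cells, stood at 527 and 679 CPM in DMSO, 184 and 155 CPM in 3C, and 138 and 112 CPM in 5C. It was highest in both DMSO libraries and the groups did not overlap. Its log2 fold change against DMSO was -1.87 in 3C (SE 0.16, adjusted p = 0.000184) and -2.25 in 5C (SE 0.16, adjusted p = 6e-05). Ccl9, another Ccr1 ligand, stood at 83.4 and 109 CPM in DMSO, 38.2 and 33.8 CPM in 3C, and 35.1 and 34.6 CPM in 5C. It fell by 1.45 on the log2 scale in 3C and by 1.45 in 5C (adjusted p = 7.07e-05 and 5.43e-05), and the libraries of the cocktails overlapped.

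Ccl8, which attracts monocytes and T cells, stood at 23.1 and 31.2 CPM in DMSO, 10.8 and 9.18 CPM in 3C, and 4.82 and 5.30 CPM in 5C. The levels stepped down from DMSO to 3C to 5C without overlap. Its log2 fold change was -1.47 in 3C (SE 0.18, adjusted p = 0.000304) and -2.40 in 5C (SE 0.18, adjusted p = 1.55e-05), and -0.93 between 5C and 3C (adjusted p = 0.00961), short of the fold limit, which it passed without 3C replicate 2 (-1.05) or 5C replicate 2 (-1.03). Ccl24, an eosinophil attractant (eotaxin 2) that acts through Ccr3, had the deepest fall among the 39 ligands. It stood at 2.55 and 2.96 CPM in DMSO, 0.332 and 0.293 CPM in 3C, and 0.275 and 0.332 CPM in 5C. Against DMSO its log2 fold change was -3.16 in 3C (SE 0.41, adjusted p = 0.000469) and -3.15 in 5C (SE 0.41, adjusted p = 0.000383). Ccr3 was low at 0.196 to 1.47 CPM and was not called.

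Ccl12, Ccl3 and Ccl4 were called lower in 5C but not in 3C, and the direct comparison of 5C with 3C was not called for any of them. Ccl12, a Ccr2 ligand of the monocyte group, stood at 4.44 and 10.2 CPM in DMSO, 5.34 and 3.11 CPM in 3C, and 2.55 and 1.62 CPM in 5C. Its DMSO libraries differed by over 2-fold and overlapped those of 3C. The log2 fold change in 5C was -1.80 (SE 0.47, adjusted p = 0.0244), but -1.06 (adjusted p = 0.0965) without DMSO replicate 2, and the call was also lost without either 5C library (adjusted p = 0.0627 and 0.14). Without DMSO replicate 1, Ccl12 was called lower in 3C as well (-1.31, adjusted p = 0.0427). Ccl3 and Ccl4, the macrophage inflammatory proteins, have neighbouring genes. Ccl3 stood at 4.20 and 6.52 CPM in DMSO, 4.03 and 3.96 CPM in 3C, and 3.00 and 2.11 CPM in 5C, a log2 fold change in 5C of -1.06 (SE 0.29, adjusted p = 0.0236). Ccl4 stood at 2.70 and 4.14 CPM, 2.05 and 1.51 CPM, and 1.55 and 0.751 CPM in the same order, with -1.56 in 5C (SE 0.41, adjusted p = 0.0204). Both calls were lost without DMSO replicate 2 (Ccl3 -0.69, Ccl4 -1.20) and without 5C replicate 2 (Ccl3 -0.84, Ccl4 -1.14). An annotated transcript on the opposite strand, Gm53692, shares 28.7% of the Ccl3 sequence, and reads from the strands could not be separated.

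Ccl2 went the other way. This is the main monocyte attractant of injured liver, and it stood at 32 and 37.5 CPM in DMSO, 135 and 131 CPM in 3C, and 86.9 and 73.0 CPM in 5C. Every cocktail library lay above both DMSO libraries, and both 3C libraries lay above both 5C libraries. It rose by 1.90 on the log2 scale in 3C (SE 0.11, adjusted p = 4.67e-06) and by 1.22 in 5C (SE 0.10, adjusted p = 3.13e-05), and the value between 5C and 3C was -0.68 (SE 0.10, adjusted p = 0.00308), under the fold limit. Ccl7, which shares the receptor Ccr2, stood at 8.49 and 16.5 CPM in DMSO, 20.9 and 18.3 CPM in 3C, and 19.4 and 16.8 CPM in 5C. Its DMSO libraries lay below the others, but the change was not called (adjusted p = 0.202 in 3C and 0.235 in 5C). Ccr2 itself, the receptor of these ligands, had 2 and 12 counts in DMSO, 0 and 0 in 3C, and 0 and 1 in 5C, all at or under the floor.

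The genes of these ligands lie side by side. On chromosome 11 (GRCm39, 81926397 to 82196516) the order is Ccl2, Ccl7, Ccl11, Ccl12, Ccl8 and Ccl1, within 270 kb. Ccl2 at one end was called higher in both cocktails, Ccl8 was called lower in both, and Ccl12 was called lower in 5C. A second group on the chromosome (83416602 to 83555509) holds Ccl5, Ccl9, Ccl6, Ccl3 and Ccl4. There Ccl9 and Ccl6 were called lower in both cocktails, and Ccl3 and Ccl4 in 5C. Ccl5, a T cell attractant, was unsteady within groups, with 41 and 32 counts in DMSO, 0 and 14 in 3C, and 6 and 65 in 5C, and was not called.

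**Figure D3:**
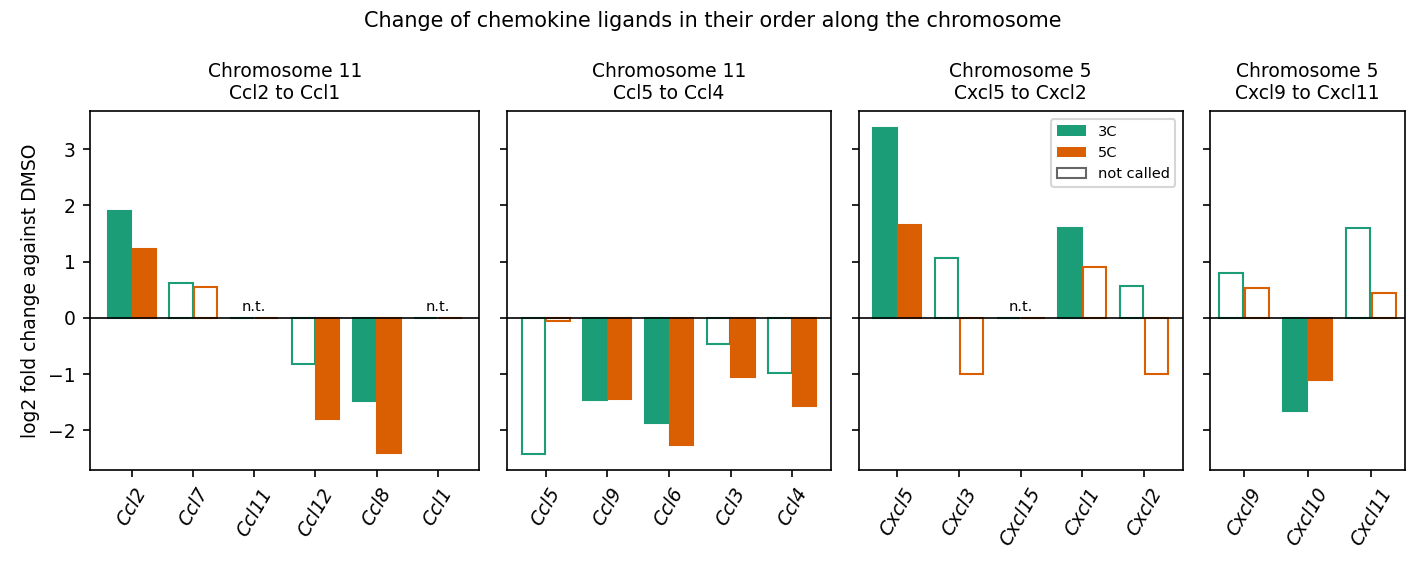
Log2 fold change against DMSO in 3C (green) and 5C (orange) of chemokine ligands, in their order along each of 4 gene clusters on chromosomes 11 and 5. Filled bars were called, open bars were not, and n.t. marks ligands not tested. In the first cluster the bars of Ccl2 (1.90 and 1.22) point up and those of Ccl8 (-1.47 and -2.40) point down.

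Of the neutrophil-attracting CXC ligands, Cxcl1 and Cxcl5 rose in 3C and Cxcl5 in 5C. Their genes also form a cluster, on chromosome 5 (90907186 to 91053797). Cxcl5, an ELR ligand of Cxcr2, stood at 1.21 and 1.47 CPM in DMSO, 11.9 and 16.6 CPM in 3C, and 4.39 and 3.90 CPM in 5C. The 3 groups did not overlap. Its log2 fold change was 3.38 in 3C (SE 0.24, adjusted p = 1.66e-05) and 1.65 in 5C (SE 0.23, adjusted p = 0.000712), and -1.73 between 5C and 3C (SE 0.22, adjusted p = 0.00167). An opposite-strand transcript, Gm72413, shares 24.7% of the Cxcl5 sequence.

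Cxcl1 is the abundant neutrophil attractant of liver, with a mean of 16.8, 50.7 and 31.2 FPKM in DMSO, 3C and 5C, against 0.743, 8.07 and 2.34 FPKM for Cxcl5. Cxcl1 stood at 17.3 and 20.3 CPM in DMSO, 56.9 and 58.8 CPM in 3C, and 35.9 and 33.3 CPM in 5C. The order was DMSO, 5C, 3C with no overlap. It rose by 1.59 on the log2 scale in 3C (SE 0.11, adjusted p = 1.12e-05), while the 0.90 in 5C (SE 0.10, adjusted p = 0.00021) passed the test but not the fold limit, which it passed without DMSO replicate 2 (1.03). Between the cocktails the value was -0.69 (adjusted p = 0.00311).

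Cxcl2, a close relative of Cxcl1, had 70 and 66 counts in DMSO, 106 and 102 in 3C, and 36 and 34 in 5C. It was highest in 3C and lowest in 5C, without overlap. Neither change against DMSO was called (log2 fold change 0.57 in 3C, adjusted p = 0.337, and -0.99 in 5C, adjusted p = 0.0894), but 5C lay below 3C by a log2 fold change of -1.56 (SE 0.39, adjusted p = 0.0301). That call was lost when any 1 of the 4 libraries was left out (adjusted p 0.108 to 0.16). Cxcl3, the other near copy, had 4 to 41 counts and was not called. Cxcr2, the receptor shared by these ligands, had at most 5 counts in any library, and Cxcr1 at most 6. Of 10 neutrophil markers, 5 never exceeded the floor (S100a9, Ly6g, Mpo, Retnlg and Camp), and the list summed to 18.8 and 16.1 CPM in DMSO and 5.25 to 7.34 CPM in the cocktails.

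Ccl20, the chemokine ligand of Ccr6, was higher in 3C. It stood at 0.655 and 1.64 CPM in DMSO, 7.04 and 8.52 CPM in 3C, and 1.67 and 1.21 CPM in 5C. Both 3C libraries lay above the other 4, and DMSO and 5C overlapped. Its log2 fold change in 3C was 2.72 (SE 0.42, adjusted p = 0.00135), and that of 5C against 3C was -2.38 (SE 0.41, adjusted p = 0.0059). The latter missed the threshold without 5C replicate 2 (adjusted p = 0.0676). Its value in 5C against DMSO was 0.34 (adjusted p = 0.605), which became 1.16 (adjusted p = 0.0458) without DMSO replicate 2 and -0.18 without DMSO replicate 1. Ccr6 had a count of 0 in all 6 libraries. Epcam and Krt7, markers of cholangiocytes, were called higher in both cocktails, as were 6 of 8 markers of that list in 3C and 5 of 8 in 5C. The list summed to 2904 and 3387 CPM in DMSO, 3525 and 3714 CPM in 3C, and 2690 and 2393 CPM in 5C. At its highest, 1 gene of the list had 225058 counts and made up most of the sum in that library. The part of the list in the Ccl20 and Cxcl5 results was not tested.

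The interferon-induced ligand Cxcl10, which attracts T cells through Cxcr3, fell. It stood at 13.4 and 13.9 CPM in DMSO, 3.58 and 5.32 CPM in 3C, and 5.52 and 6.99 CPM in 5C. Both DMSO libraries were above all others. The log2 fold change was -1.65 in 3C (SE 0.23, adjusted p = 0.000715) and -1.11 in 5C (SE 0.22, adjusted p = 0.00532), and in 5C it was under the fold limit without 5C replicate 1 (-0.93). Its neighbours on chromosome 5 (92469206 to 92513344), Cxcl9 and Cxcl11, are induced by the same stimuli but had at most 30 and 46 counts and were not called. Cxcr3 had 19 to 43 counts in every library. Art3 overlaps Cxcl10 on the other strand and was higher with the cocktails, at 44 and 64 counts in DMSO, 365 and 351 in 3C, and 266 and 202 in 5C. Art3 shares 4.64% of the Cxcl10 sequence. The part of Art3 reads in the Cxcl10 counts was not tested.

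Of the other CXC ligands, Cxcl13 fell and Cxcl12 rose. Cxcl13, the B cell attractant, stood at 79.2 and 55.9 CPM in DMSO, 37.1 and 34.1 CPM in 3C, and 22.0 and 19.6 CPM in 5C. The levels stepped down without overlap. It fell by 1.68 on the log2 scale in 5C (SE 0.15, adjusted p = 5.66e-05), and its -0.95 in 3C (SE 0.15, adjusted p = 0.00166) passed the test without reaching the fold limit, which it reached without DMSO replicate 2 (-1.17) or 3C replicate 1 (-1.01). Its receptor Cxcr5 had at most 5 counts. The platelet chemokine Pf4, whose symbol the naming rule does not take, stood at 135 and 143 CPM in DMSO, 25.7 and 36.6 CPM in 3C, and 13.3 and 16.0 CPM in 5C, and was called lower in each comparison (-2.19 in 3C, -3.22 in 5C and -1.04 between them). Ppbp, the other such chemokine, was listed at 0 in all libraries.

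Cxcl12, the stromal ligand of Cxcr4 and Ackr3, stood at 54.2 and 45.2 CPM in DMSO, 103 and 91.9 CPM in 3C, and 108 and 125 CPM in 5C. All cocktail libraries lay above both DMSO libraries. It rose by 1.25 on the log2 scale in 5C (SE 0.11, adjusted p = 4.25e-05) and by 0.94 in 3C (SE 0.11, adjusted p = 0.000279). The latter was just short of the fold limit and passed it without DMSO replicate 1 (1.06) or 3C replicate 2 (1.02). Cxcl14, a ligand made by many epithelia, stood at 23.3 and 27.8 CPM in DMSO, 17.8 and 19.0 CPM in 3C, and 30.5 and 36.0 CPM in 5C. It was lowest in 3C and highest in 5C, with log2 fold changes of -0.51 in 3C (adjusted p = 0.0218), 0.40 in 5C (adjusted p = 0.0519) and 0.91 between 5C and 3C (SE 0.13, adjusted p = 0.00296).

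The membrane-bound ligands are Cx3cl1 (fractalkine) and Cxcl16, which act as adhesion molecules until shed. Cx3cl1 stood at 13.8 and 10.2 CPM in DMSO, 31.5 and 29.9 CPM in 3C, and 39.5 and 56.6 CPM in 5C. The order was DMSO, 3C, 5C with no overlap. It rose by 1.32 on the log2 scale in 3C (SE 0.20, adjusted p = 0.00257) and by 2.02 in 5C (SE 0.20, adjusted p = 0.000252), and the 0.70 between the cocktails was not called (SE 0.20, adjusted p = 0.0616). Cxcl16 stood at 74.9 and 69.1 CPM in DMSO, 113 and 117 CPM in 3C, and 79.4 and 72.3 CPM in 5C. It was highest in 3C, at a log2 fold change of 0.64 (SE 0.07, adjusted p = 0.000196), under the fold limit. Zmynd15 on the opposite strand shares 53.5% of the Cxcl16 sequence, and Med11 on that strand overlaps Cxcl16 as well. Zmynd15 had 379 and 320 counts in DMSO and 630 and 673 in 3C, so the Cxcl16 value is uncertain. An opposite-strand transcript shares 12.1% of Cx3cl1.

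Among receptors, Ccr1 fell and Cx3cr1 rose. Ccr1, the receptor of Ccl3, Ccl6 and Ccl9 on myeloid cells, was the most abundant receptor in DMSO at a mean of 26.1 FPKM. It stood at 82.3 and 80.2 CPM in DMSO, 32.4 and 34.2 CPM in 3C, and 24.3 and 22.9 CPM in 5C. The levels stepped down without overlap. Log2 fold changes of Ccr1 were -1.32 in 3C (SE 0.08, adjusted p = 7.46e-06) and -1.76 in 5C (SE 0.08, adjusted p = 9.75e-07).

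Cx3cr1, the fractalkine receptor of monocytes and some macrophages, had 0 and 4 counts in DMSO, 170 and 356 in 3C, and 107 and 191 in 5C. Both DMSO libraries were under the floor of 12 counts, and the cocktails overlapped each other. Cx3cr1 entered the test only through the cocktails, where it was high, so its p-values are no separate support for the rise. Against the mean floor of the DMSO libraries, mean Cx3cr1 was at least 21.6-fold higher in 3C (adjusted p = 0.00052). In 5C it was at least 11.9-fold higher (adjusted p = 0.00085). Its mean level per length stayed low at 0.777 FPKM in 3C and 0.482 FPKM in 5C, so ligand and receptor both rose while the receptor remained far below Cx3cl1 (8.40 and 13.1 FPKM). In each cocktail 15 of 17 macrophage markers were called lower than in DMSO. Of these, Adgre1 stood at 411 and 431 CPM in DMSO, 125 and 132 CPM in 3C, and 83.4 and 82.8 CPM in 5C. Which cells carried the Cx3cr1 RNA was not tested.

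Ccr10, the receptor of Ccl27 and Ccl28, had 9 and 22 counts in DMSO, 110 and 40 in 3C, and 58 and 75 in 5C. All cocktail libraries lay above both DMSO libraries. Ccr10 entered the test only through the cocktails, where it was high, so its p-values are no separate support for the rise. The log2 fold change was 2.22 in 3C (SE 0.67, adjusted p = 0.0411) and 2.05 in 5C (SE 0.67, adjusted p = 0.0493). These calls rest on few counts: without DMSO replicate 1 they became 1.70 (adjusted p = 0.171) and 1.53 (adjusted p = 0.196), without 3C replicate 1 the former became 1.29 (adjusted p = 0.34), and the latter was lost without either 5C library (adjusted p = 0.102 and 0.178). Fitting only the 4 libraries compared also ended both (adjusted p = 0.0682 and 0.0539). Ccl27a was not called, and near-identical copies share 85.6% of its sequence. Ccl28 had 24 to 54 counts and was not called.

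Cxcl12 rose while its signalling receptor Cxcr4 fell. Cxcr4 stood at 29.3 and 29.3 CPM in DMSO, 10.4 and 10.6 CPM in 3C, and 12.9 and 16.5 CPM in 5C. Both DMSO libraries lay above all others. It fell by 1.51 on the log2 scale in 3C (SE 0.14, adjusted p = 7.07e-05), and its -0.97 in 5C (SE 0.14, adjusted p = 0.000712) was just short of the fold limit, which it passed without 5C replicate 2 (-1.18). Ackr3, the atypical receptor that takes up Cxcl12, moved in opposite directions. It stood at 24.3 and 23.4 CPM in DMSO, 15.4 and 11 CPM in 3C, and 37.7 and 30.9 CPM in 5C. The order was 3C, DMSO, 5C with no overlap. The log2 fold change was -0.88 in 3C (SE 0.16, adjusted p = 0.00368) and 0.54 in 5C (SE 0.16, adjusted p = 0.0324), both under the fold limit, and 1.42 between 5C and 3C (SE 0.16, adjusted p = 0.000985). Without 3C replicate 1 the value in 3C passed the limit (-1.15).

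Of 5 atypical receptors, all tested, edgeR called 0 against DMSO in either cocktail. Over all tested genes 7.3% were called higher and 4.42% lower in 5C, and 5.83% and 3.62% in 3C. With so few receptors, 0 calls cannot be set apart from those shares. An unadjusted p under 0.05 was found for 2 of them in 5C and 2 in 3C. DESeq2 called 0 and limma on log2(FPKM + 0.1) called 1 lower in 5C. Ccrl2, which holds chemerin at the cell surface, stood at 5.58 and 7.71 CPM in DMSO, 4.09 and 3.62 CPM in 3C, and 3.52 and 3.61 CPM in 5C. Its values of -0.82 in 3C (adjusted p = 0.0314) and -0.88 in 5C (adjusted p = 0.0202) passed the test but not the fold limit. Ackr1, Ackr2 and Ackr4, the chemokine binders of venules and lymphatics, had at most 54 counts.

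**Figure D4:**
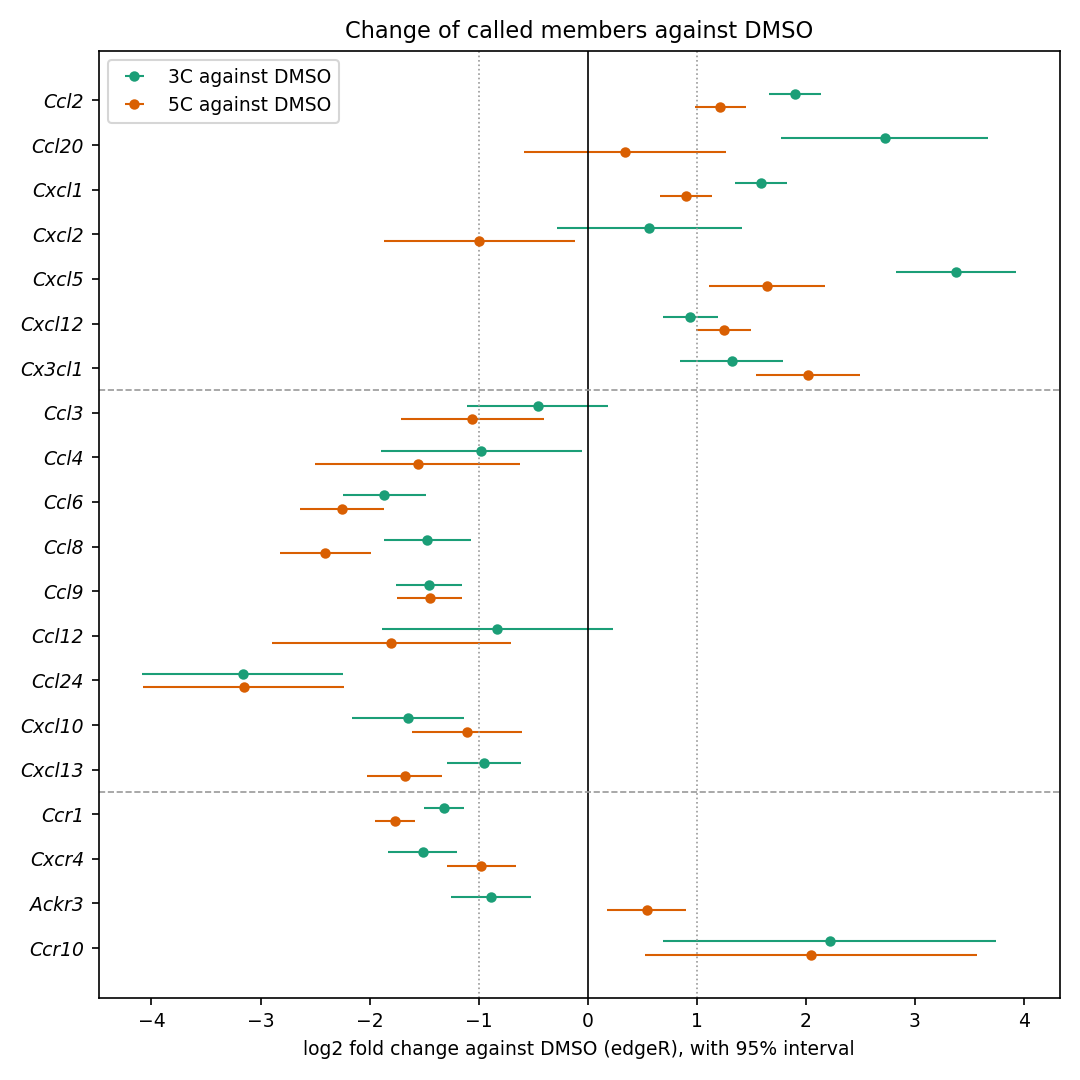
Log2 fold change against DMSO with its 95% interval from edgeR, for 3C (green) and 5C (orange), of 20 called members. Cx3cr1 is left out because its DMSO libraries were under the floor, dotted lines mark the fold limit, and dashed lines part ligands from receptors as in the plot of levels. Ccl2 and Cxcl5 lie right of the upper limit in both cocktails, Ccl6 and Ccl24 lie left of the lower limit in both, and the Ackr3 points lie on either side of 0.

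Marker lists of other cells were read beside these values. In 5C, 7 of 11 endothelial markers were called higher and 2 lower (Lyve1 and Stab1, which sinusoidal endothelium and macrophages both express), with 5 higher and 2 lower in 3C. The list summed to 2299 and 1802 CPM in DMSO, 920 and 913 CPM in 3C, and 714 and 749 CPM in 5C, with Clec4g at or under the floor. In the library where that sum was highest, 1 gene of the list, at 132272 counts, made up most of it. Pecam1 stood at 0.878 and 0.698 CPM in DMSO, 3.11 and 8.77 CPM in 3C, and 22.3 and 41.4 CPM in 5C. The order of groups was that of Cx3cl1 for Pecam1 but the reverse for the list sum. Mesothelial markers were called higher for 5 of 6 genes in 5C and 1 of 6 in 3C, at a summed 1182 and 972, 1401 and 1257, and 2401 and 2295 CPM. Of 12 stellate and fibroblast markers, 4 were called higher in 5C, and in 3C 1 was higher and 2 lower, at a summed 9401 and 8071, 7201 and 7296, and 11785 and 12747 CPM. The 5C libraries were highest for this list, as for Cxcl12, Cxcl14 and Ackr3. Of 10 markers of T, B and NK cells, 9 were at or under the floor in all libraries, as were 4 of 7 dendritic cell markers. The part of these lists in the rises of Cx3cl1, Cxcl12 and Ackr3 was not tested.

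Calls in the signalling chain below the receptors were all falls. The list held 34 genes for G proteins, phosphoinositide 3-kinases, Rac regulators, kinases, arrestins and RGS proteins, all tested. In 5C edgeR called 0 higher and 17 lower (median log2 fold change -1.02), beside 7.3% and 4.42% of all tested genes. In 3C it called 0 higher and 14 lower (median -0.79), beside 5.83% and 3.62%. In each cocktail 15 of 17 macrophage markers were also called lower, and their part in these falls was not tested. No gene of the list was called higher by DESeq2 or limma either, and 2 in 5C and 2 in 3C were higher at an unadjusted p under 0.05. Between the cocktails 0 were called by edgeR and DESeq2 and 1 by limma on log2(FPKM + 0.1), while 3 were higher and 17 lower at an unadjusted p under 0.05. Among the deepest falls in 5C were those of Plcb2, a phospholipase C (-2.26), and Dock2, a Rac activator of leukocytes (-2.09). Dock2 stood at 105 and 101 CPM in DMSO, 35.7 and 33.4 CPM in 3C, and 23.8 and 24.0 CPM in 5C.

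Upstream of the chemokines are the cytokines and sensors that induce them. Of 23 such genes, 19 were tested, and edgeR called 0 higher and 2 lower in each cocktail, Il1a and Tlr2 in 5C and Il1a and Tlr4 in 3C, beside 4.42% and 3.62% of all genes called lower. Il1a, an alarm cytokine, stood at 7.46 and 6.93 CPM in DMSO, 1.27 and 2.70 CPM in 3C, and 0.985 and 0.939 CPM in 5C (log2 fold change in 5C -2.88, adjusted p = 0.000348). At an unadjusted p under 0.05 the list had 4 genes higher and 8 lower in 5C, and 2 higher and 10 lower in 3C, while DESeq2 called 0 higher and 2 lower in each. Il1b, Ifng, Ifnb1 and Csf2 were at or under the floor in all libraries. Of 15 NF-kappaB feedback genes, all tested, edgeR and DESeq2 called 0 in any comparison. Over all tested genes edgeR called 7.3% higher and 4.42% lower in 5C against DMSO, and 5.83% and 3.62% in 3C. Between the cocktails those shares were 2.16% and 0.852%. At an unadjusted p under 0.05 the feedback list had 4 genes higher and 6 lower in 5C against DMSO. In 3C these were 5 and 1, and in 5C against 3C they were 1 and 7. The median log2 fold change against DMSO was -0.06 in 5C and 0.02 in 3C.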

How the data were processed

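Total RNA of cultured dHeps was made into libraries with the NEBNext Ultra kit, which does not mark strand, and sequenced as paired reads. Against the GRCm39 assembly, the authors made and deposited a table of estimated counts per gene, whole numbers that were not normalized, and a table of FPKM, which they scaled for gene length and library total. The submitters' processing notes name featureCounts, Subread and DESeq2, with no version or role; the annotation release and the strand setting are not given in the sources used here. Low counts held an excess at 4 (4816 entries, beside 3121 of 3 and 2303 of 5), although 1 was the commonest (6338). What 1 fragment adds is therefore uncertain. It was taken as 4 units, and the floor of 3 fragments, or 12 units, and the bounds against it rest on that assumption.

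Groups came from the labels. Counts of all 6 libraries were fitted with edgeR 4.0.16 in R 4.3.3 (TMM factors 0.974 to 1.02, filterByExpr on the group, robust quasi-likelihood F test, 3 residual degrees of freedom), with Benjamini-Hochberg adjustment over 19135 genes, which gives the adjusted p-values of the report except where a fit without a library, of fewer libraries or by another tool is named. The common coefficient of variation was 18.4%. The SE is that implied by the F statistic. CPM is the count scaled to the library total. Values per library are given for members called in any comparison, for members higher against DMSO at an adjusted p under 0.05 and for their known partners. Other genes came from fixed lists, by the same fit. Some genes are not reported here. The members and lists were chosen with earlier results of these data known.

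Positions and overlaps came from GENCODE on GRCm39, and the share of sequence held in common from 32-base words of the longest transcript. Promoters came from RefSeq on GRCm38.p6, without converting coordinates. Alternatives were RLE and upper-quartile normalization, no filter and a stricter filter, DESeq2 1.42.0, limma 3.58.1 on log2(FPKM + 1) and log2(FPKM + 0.1), other thresholds, a replicate block, only the 4 libraries compared, leaving out each library and, added after the data were seen, counts divided by 4. Figures were drawn with matplotlib 3.10.9.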

Additional observations from a re-analysis of the deposited data

Results flagged for a closer look

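In all, 3 members differed between the cocktails while lying on opposite sides of DMSO. Ackr3 was under DMSO in 3C and above it in 5C, with a log2 fold change of 1.42 between 5C and 3C (edgeR adjusted p = 0.000985), the same order being shown by both libraries of each group. Cxcl14 had the same pattern at 0.91 (adjusted p = 0.00296). Cxcl2 had the reverse, above DMSO in 3C and under it in 5C, at -1.56 (adjusted p = 0.0301), on 34 to 106 counts a library. In each case the adjusted p is that of the difference between the cocktails, while against DMSO neither change of Cxcl2, nor that of Cxcl14 in 5C, passed the test.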

How the results depend on the processing

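Of 1050 single-gene values recomputed under the alternatives, 964 kept their direction and side of the threshold, 48 lost and 25 gained a call, and 13 changed direction. Testing against a log2 fold change of 1 (glmTreat) left 3 members higher and 6 lower in 5C against DMSO, 0 and 0 between the cocktails, 12 and 5 pathway genes in 5C and 3C against DMSO, and 0 cell type markers between the cocktails. With no fold limit, 11 members were lower in 3C against DMSO, 3 were higher and 9 lower in 5C against 3C, pathway genes numbered 41 (5C) and 39 (3C) against DMSO and 23 between the cocktails, and 38 markers were called between the cocktails. With limma on log2(FPKM + 1), which shrinks changes of low genes, 3 members were higher in 5C against DMSO and 10 pathway genes were called in 3C. On that scale Ccl3 (-0.86), Cxcl5 (0.94) and Cx3cr1 (0.55) in 5C against DMSO, Cx3cr1 in 3C (0.80) and Cxcl2 between the cocktails (-0.68) were under the fold limit. With limma on log2(FPKM + 0.1), 1 pathway gene was called between the cocktails.

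Leaving out 1 library at a time, with the lone library left assumed to vary like the other groups, moved the numbers called in every comparison. This held for members, pathway genes and markers. In 5C against DMSO the main fit called more members lower than higher, but without DMSO replicate 2 more were called higher than lower. Leaving out a library moved the Ccl20 value in 5C against DMSO between -0.18 and 1.16. The 5C against 3C values moved between -0.16 and 0.15 for Ccl24, between -0.077 and 0.095 for Ccl9 and between -0.73 and 0.76 for Ccr10. Ccl24 and Ccl9 between the cocktails, both near 0, were also -0.0118 and -0.0148 with upper-quartile factors, -0.0018 and -0.0334 with log2(FPKM + 1), and -0.0074 and -0.0361 with log2(FPKM + 0.1). The causes were not tested.

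Replicate numbers did not pair the libraries, since deviations from the group means correlated at -0.03, 0.00 and 0.02 over 19135 genes for DMSO with 3C, DMSO with 5C and 3C with 5C. With the number as a replicate block, 5 members were called higher and 9 lower in 5C against DMSO, 6 and 7 in 3C against DMSO, and 1 and 3 between the cocktails, and the calls lost were those of Ccl12 in 5C and Ccr10 in both. Depth limited members under the floor, where a difference was not detectable.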
